A study of Mus musculus with 26 samples.

Results

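The genes described here encode the subunits of the mitochondrial oxidative phosphorylation complexes, together with a few assembly factors that carry the same names. They were chosen by symbol, as the rows of the expression table that begin with Ndufa, Ndufb, Ndufc, Ndufs, Ndufv, Uqcr, Cox4 to Cox8 or Atp5, leaving out pseudogenes named with -ps, which gave 88 of 24409 genes. Of these, 71 are structural subunits: 36 of complex I, 8 of complex III, 12 of complex IV and 15 of ATP synthase. Another 8 are paralogues of complex IV subunits best known from particular tissues, and 9 are assembly factors. Ndufa4 was counted with complex IV, where its protein is found, although its name places it in complex I. The symbol rule takes neither complex II nor cytochrome c, and it misses Cyc1 of complex III and Usmg5 of ATP synthase. Of 26 symbols listed for mitochondrial DNA genes 0 were in the table, so the subunits encoded in the mitochondrion are not analysed here.

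Mouse embryonic stem (ES) cells of the C57BL/6J strain were compared between WT and cells with a zygotic ZFP57 deletion (KO), to ask what loss of ZFP57 does to the transcriptome. ZFP57 is a KRAB zinc finger protein that keeps the methylation of imprinted regions after fertilization. The KO lines carry a homozygous disruption of the coding exons for the KRAB domain and the zinc fingers, and the mothers' ZFP57 was not removed. All lines were male, derived from embryos and grown in N2B27 with LIF and the 2i inhibitors of Erk and Gsk3 (PD0325901 and CHIR99021), at matched passage and after karyotyping. Total RNA depleted of ribosomal RNA was sequenced from 3 WT and 2 KO libraries. The labels number the libraries without saying whether each number is a separate line, so the p-values measure the spread between these libraries, which may be technical.

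Values are FPKM, fragments scaled to transcript length and library size, and the number of fragments behind them is unknown. Differences are log2 fold changes of KO against WT on the log2(FPKM + 0.1) scale, with the standard error (SE), and a gene was called higher or lower at an adjusted p under 0.05 in limma with Benjamini-Hochberg adjustment over 14612 tested genes. The targeted gene, Zfp57, had 75.9, 72.3 and 70.6 FPKM in WT and 19.0 and 21.6 FPKM in KO (log2 fold change -1.84, adjusted p = 2.3e-04), so transcript remained but was lower in both KO libraries. The summed FPKM of the table was 207700 to 213700 in the 5 libraries, and each library's median difference from the WT mean was between -0.01 and 0.02 on the log2 scale. All 8 ES cell markers were expressed, of which 4 were higher and Dppa3 lower in KO (24.2, 35.6 and 37.0 against 9.04 and 4.43 FPKM). The sum of 8 fibroblast markers was only 0.32 to 0.57 FPKM, with Col3a1 and Lum at 0 in every library. The sum of 7 primitive endoderm markers was 0.77 to 0.93 FPKM in WT and 1.12 and 1.44 FPKM in KO, with only Sox7 called (higher). Of the trophoblast markers Eomes and Krt8 were higher and Tfap2c lower, with a list sum of 17.8 to 19.6 FPKM in WT and 17.3 and 18.4 FPKM in KO. Of 5 neural markers Sox1 was higher and Nes lower, with a sum of 14.7 to 17.5 FPKM in WT and 10.6 and 16.1 FPKM in KO. The part of such cells in the results below was not tested, and in bulk RNA fewer cells of a type and less RNA per cell cannot be told apart.

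The respiratory chain passes electrons from NADH through complex I, and from succinate through complex II, to ubiquinone, then through complex III and cytochrome c to complex IV, which reduces oxygen. Complexes I, III and IV pump protons across the inner mitochondrial membrane, and ATP synthase uses their return to make ATP. Most subunits are encoded in the nucleus and scattered over the chromosomes, while a small core is encoded in mitochondrial DNA. Mouse ES cells rely on both glycolysis and respiration.

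Promoter sequences are shown for 5 members on which the results turn. Atp5g1, Atp5g2 and Atp5g3 encode the same mature c subunit of ATP synthase from different chromosomes. In KO Atp5g1 was lower, Atp5g3 higher and Atp5g2 not called. Atp5h is a second ATP synthase gene that was lower in KO, and Cox6a1 is a complex IV gene that was higher. Each runs 5′ to 3′ over 300 bases around the transcription start, most of them upstream, in the RefSeq promoters of GRCm38.p6. Capitals mark matches, on either strand, to GCGCANGC (the NRF1 motif), CCGGAAGT (ETS factors such as GABPA) or AAGATGG (YY1). All 5 lie on the minus strand, at chr11:96075582-96075881 (Atp5g1), chr15:102670998-102671297 (Atp5g2), chr2:73911277-73911576 (Atp5g3), chr11:115419870-115420169 (Atp5h) and chr5:115348909-115349208 (Cox6a1).
Atp5g1: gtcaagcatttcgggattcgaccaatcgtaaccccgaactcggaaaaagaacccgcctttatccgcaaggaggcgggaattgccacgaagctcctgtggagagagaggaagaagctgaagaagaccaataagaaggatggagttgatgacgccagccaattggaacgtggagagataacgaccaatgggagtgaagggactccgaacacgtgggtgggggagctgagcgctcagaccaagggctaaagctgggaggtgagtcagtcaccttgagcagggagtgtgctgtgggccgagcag
Atp5g2: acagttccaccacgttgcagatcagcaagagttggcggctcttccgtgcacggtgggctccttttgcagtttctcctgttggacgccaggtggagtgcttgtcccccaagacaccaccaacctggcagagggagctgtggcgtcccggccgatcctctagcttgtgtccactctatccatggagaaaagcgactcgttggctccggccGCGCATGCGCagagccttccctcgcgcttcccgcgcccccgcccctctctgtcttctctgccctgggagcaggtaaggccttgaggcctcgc
Atp5g3: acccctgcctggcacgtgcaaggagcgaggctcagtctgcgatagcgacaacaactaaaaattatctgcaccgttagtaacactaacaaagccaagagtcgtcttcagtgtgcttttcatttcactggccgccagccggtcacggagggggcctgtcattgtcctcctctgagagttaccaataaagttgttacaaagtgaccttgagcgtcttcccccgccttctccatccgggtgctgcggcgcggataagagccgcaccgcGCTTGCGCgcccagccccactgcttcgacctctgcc
Atp5h: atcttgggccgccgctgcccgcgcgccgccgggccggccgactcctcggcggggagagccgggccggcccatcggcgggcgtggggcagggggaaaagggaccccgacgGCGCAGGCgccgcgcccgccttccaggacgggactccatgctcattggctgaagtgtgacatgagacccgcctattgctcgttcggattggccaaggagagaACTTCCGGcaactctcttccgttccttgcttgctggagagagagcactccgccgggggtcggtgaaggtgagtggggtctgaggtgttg
Cox6a1: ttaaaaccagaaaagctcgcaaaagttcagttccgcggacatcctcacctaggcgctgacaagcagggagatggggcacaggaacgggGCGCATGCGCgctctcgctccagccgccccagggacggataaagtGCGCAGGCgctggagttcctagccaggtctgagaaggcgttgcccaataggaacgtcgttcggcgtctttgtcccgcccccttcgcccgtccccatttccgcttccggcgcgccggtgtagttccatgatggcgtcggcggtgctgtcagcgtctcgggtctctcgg

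The Atp5g1 window held no match to the 3 motifs, the Atp5g2 window 2 and the Atp5g3 window 1 match to the NRF1 motif, the Atp5h window 1 NRF1 and 1 ETS match, and the Cox6a1 window 3 NRF1 matches. RefSeq windows were found for 73 of the 88 members, 79 windows in all. The NRF1 motif stood in 30.4% of these windows, against 18.8% of the windows of tested genes and 9.95% of all windows. The YY1 motif stood in 16.5%, 6.95% and 6.34% in the same order, and the ETS motif in 6.33%, 7.72% and 3.89%. The motif AAGGTCA, bound by oestrogen-related receptors, stood in 8.86%, 3.33% and 4.72%. TGCCGC, the core of the ZFP57 motif, stood in 7.59% of member windows, 18.9% of those of tested genes and 11.6% of all. By complex, NRF1 matches were found for 9 of 32 complex I genes, 2 of 5 complex III genes, 1 of 10 complex IV genes and 8 of 14 ATP synthase genes with a window. Complex IV, which had the most calls higher in KO, had an NRF1 match in Cox6a1 alone. A match is a run of letters and says nothing of binding.

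The members are expressed strongly in these cells. The median member stood at percentile 89.6 of the mean level of tested genes, and 40 of the 71 structural subunits were above percentile 90. In FPKM, which is per transcript length, the highest was Atp5b, the catalytic beta subunit of ATP synthase, at 283 to 302 FPKM over the 5 libraries, followed by Atp5a1 at 203 to 229 and Cox6c at 210 to 240 FPKM, whose ranges overlapped. Among the tissue isoforms, Cox6b2 (26.9 to 40.8 FPKM) and Cox7a1 (4.21 to 7.75 FPKM) were the most abundant, while Cox4i2 and Cox8c had at most 0.16 FPKM and Cox8b was listed at 0 in every library.

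Over all members, 23 were called higher in KO and 11 lower, a balance that turned with the libraries centred on the median of genes outside chromosome 11 (12 and 13) and with only estimates beyond 0.5 in size counted (3 and 5). A mean level of at least 0.1 FPKM left 85 members to test, without Cox4i2, Cox8b and Cox8c. Ndufa4l2, among the 11 lower, passed this filter through its WT values alone. Of the 85 members 34 were called and 51 were not. That is 40.0% called, beside 41.1% of all tested genes. The share called in each direction was 18.8% higher and 22.3% lower for all tested genes, against 23 and 11 of 85 members. The median log2 fold change was 0.06 for members and -0.01 for all tested genes. WT and KO values did not overlap for 50 members (58.8%), 35 of them higher in KO, beside 63.4% of all tested genes in either direction. With centring on the median of all tested genes 17 were higher and 13 lower.

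**Figure D1:**
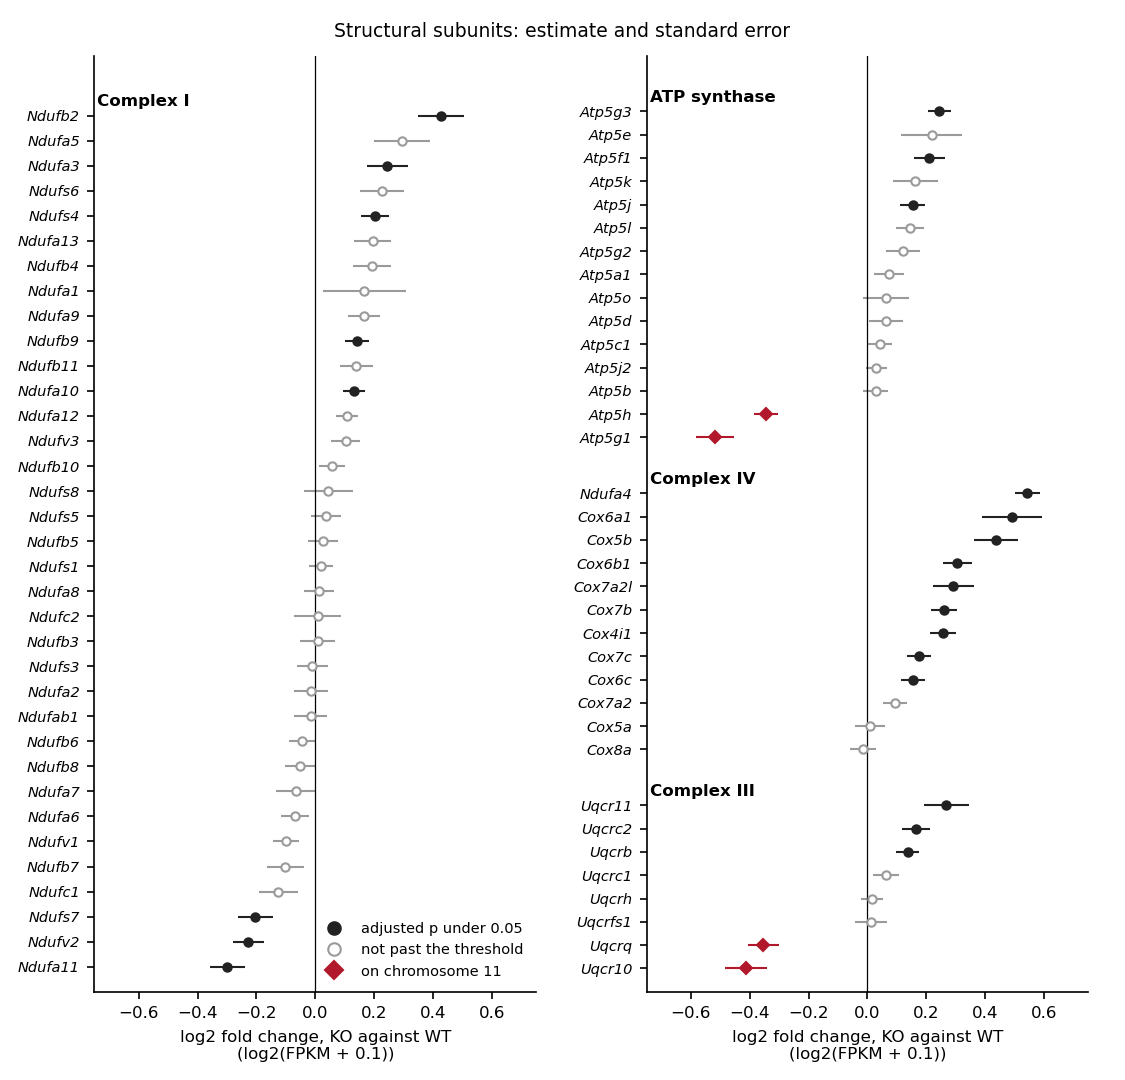
Log2 fold change of KO against WT (x axis, log2(FPKM + 0.1) scale) for 70 of the 71 structural subunits, with bars of 1 SE from 3 WT and 2 KO libraries; filled symbols passed an adjusted p of 0.05 and red diamonds are genes on chromosome 11. Complex IV has 9 of 12 filled symbols to the right of 0, and the 4 red diamonds are the lowest points of complex III and of ATP synthase.

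In complex IV, cytochrome c oxidase, 9 of the 12 nuclear subunits were higher in KO and 0 lower, beside 18.8% and 22.3% of all tested genes, and the median log2 fold change was 0.26, with 0.28 in KO 1 and 0.21 in KO 2 and with -0.04 to 0.02 in the WT libraries. The sum over the 12 subunits was 939, 938 and 937 FPKM in WT and 1092 and 1108 FPKM in KO, a ratio of 1.17. The groups did not overlap, and the exact permutation test on this sum gave p = 0.1 (two-sided), the smallest that 3 against 2 libraries allow, or 0.17 adjusted over 10 sums and shares.

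Ndufa4, a subunit of the assembled oxidase (chr6:11900372-11907450), had the highest estimate of the complex. It had 57.4, 57.1 and 56.0 FPKM in WT and 80.0 and 85.9 FPKM in KO, a log2 fold change of 0.54 (SE 0.04, adjusted p = 5.7e-04). Both KO libraries stood far above the narrow WT range. The median of tested genes on chromosome 6 was itself 0.17, and that of the 10 nearest tested genes 0.19. With chromosome medians subtracted the estimate was 0.38, below those of Cox6a1 (0.51) and Cox5b (0.43).

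Cox6a1, the general form of a small subunit that has another form in muscle, had 17.6, 21.2 and 16.7 FPKM in WT and 25.2 and 26.6 FPKM in KO (log2 fold change 0.49, SE 0.10, adjusted p = 0.011). The groups did not overlap, but without KO 2 the adjusted p was 0.071. Cox5b, a zinc-binding subunit, had 105, 116 and 105 FPKM in WT and 137 and 158 FPKM in KO (log2 fold change 0.44, SE 0.07, adjusted p = 0.0057). The spread between the KO libraries of Cox5b was wide, and both were above WT.

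Cox6b1, which joins the monomers of the oxidase, had 101, 98.7 and 91.5 FPKM in WT and 120 FPKM in each KO library (log2 fold change 0.30, SE 0.05, adjusted p = 0.0046). Cox4i1, the general form of the largest nuclear subunit, rose from 46.4, 45.4 and 46.8 to 57.4 and 53.0 FPKM (log2 fold change 0.26, adjusted p = 0.0064). Cox7b rose from 88.2, 83.8 and 84.4 to 105 and 99.1 FPKM (log2 fold change 0.26, adjusted p = 0.0057). For Cox6b1, Cox4i1 and Cox7b every KO value was above every WT value.

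The other calls were Cox7a2l (log2 fold change 0.29), Cox7c (0.18) and Cox6c (0.15). Together with Cox6a1 these were lost when single libraries were left out, each of the 5 libraries costing at least 1 of the 4 calls, at adjusted p from 0.05 to 0.10. The 5 calls of Ndufa4, Cox5b, Cox6b1, Cox4i1 and Cox7b held without any single library. The subunits without a call were Cox7a2 (24.3, 24.2 and 23.2 against 25.2 and 25.8 FPKM, adjusted p = 0.12), Cox5a (30.3, 32.9 and 30.8 against 30.6 and 32.4 FPKM, adjusted p = 0.92) and Cox8a (139, 133 and 145 against 138 and 137 FPKM, adjusted p = 0.80). Cox5a and Cox8a had overlapping groups, and Cox7a2 did not.

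The estimates were also set against the chromosomes the genes lie on. Of the complex IV subunits 11 of 12 were above the median of their own chromosome, by a median of 0.24, beside 21 of 36 in complex I (median 0.01), 7 of 8 in complex III (0.08) and 14 of 15 in ATP synthase (0.07). In complex IV, with chromosome medians subtracted before the fit 7 were called higher and 0 lower. Across all tested genes that fit called 37.2%. With the replicate number as a block 6 remained higher and 0 lower, and with centring by transcript length 8 were higher and 0 lower, without Cox6c and Cox7c but with Cox7a2 (adjusted p = 0.041).

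**Figure D2:**
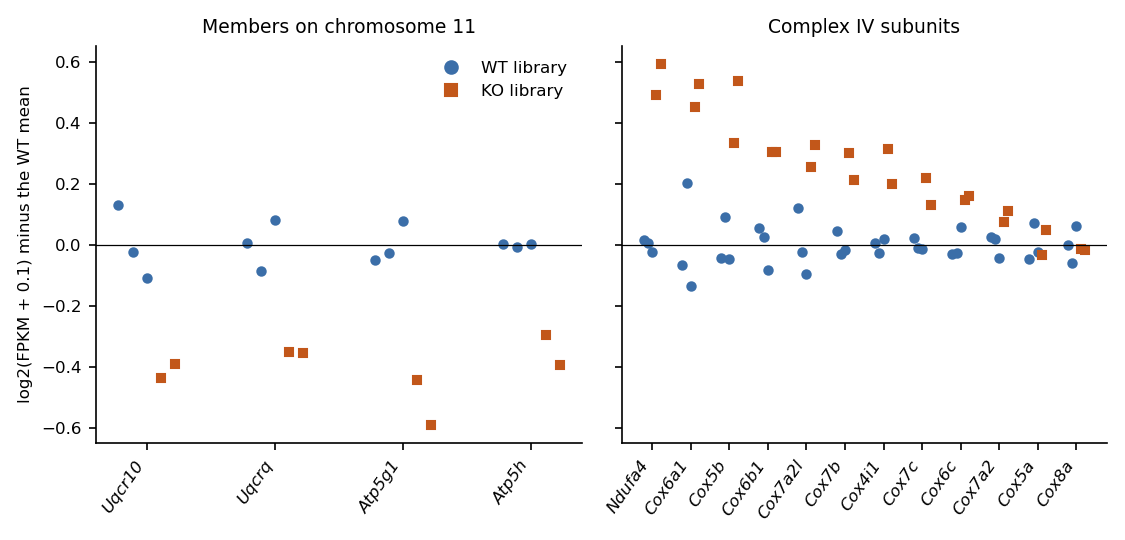
Level of each gene in each library (y axis, log2(FPKM + 0.1) minus the mean of the 3 WT libraries; circles WT, squares KO) for the 4 members on chromosome 11 and the 12 complex IV subunits. The KO squares of the chromosome 11 genes all lie below the WT circles, while those of 10 of the complex IV subunits, from Ndufa4 to Cox7a2, lie above.

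Of the 5 tested paralogues of complex IV subunits, Cox6b2 was higher and Cox7a1, Cox7b2 and Ndufa4l2 were lower, beside 18.8% and 22.3% of all tested genes. Cox6b2, the form known from testis, had 30.7, 26.9 and 28.3 FPKM in WT and 38.8 and 40.8 FPKM in KO (chr7:4751792-4753094, log2 fold change 0.47, SE 0.06, adjusted p = 0.0023). It rose beside its general partner Cox6b1, and its share of the sum of the pair was 23.4%, 21.4% and 23.7% in WT and 24.5% and 25.4% in KO (exact permutation p = 0.1, adjusted 0.17). Cox7a1, the form of heart and skeletal muscle, fell, with 6.68, 7.75 and 7.46 FPKM in WT and 5.27 and 4.21 FPKM in KO (log2 fold change -0.62, SE 0.11, adjusted p = 0.0071, or 0.053 with the replicate block). Its share of the sum with Cox7a2 was 21.6%, 24.2% and 24.4% in WT and 17.3% and 14.0% in KO (exact permutation p = 0.1, adjusted 0.17).

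Cox7b2 had 1.67, 1.75 and 1.48 FPKM in WT and 0.95 and 1.20 FPKM in KO (log2 fold change -0.57, adjusted p = 0.021). Ndufa4l2, a paralogue of Ndufa4 known as a hypoxia-induced gene, was close to absent. It passed the filter of 0.1 FPKM through WT alone (mean 0.28 in WT and 0.06 in KO), so its call depends on that filter. It had 0.34, 0.16 and 0.33 FPKM in WT and 0.04 and 0.08 FPKM in KO (log2 fold change -1.21, SE 0.30, adjusted p = 0.022). Both calls were lost without single libraries, each of the 5 libraries costing at least 1 of them, at adjusted p from 0.055 to 0.10. Cox6a2, the muscle form, had 0.47 FPKM in KO 2 and at most 0.03 FPKM in the other 4 libraries (adjusted p = 0.16, or 0.0078 without KO 1), so its estimate of 1.19 rests on KO 2.

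**Figure D3:**
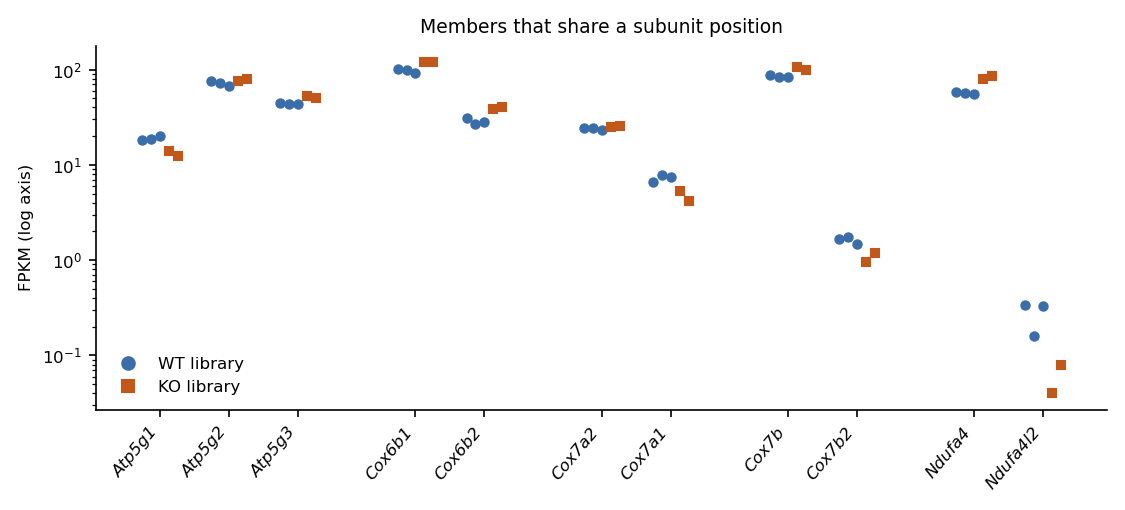
FPKM (y axis, log scale) of members that fill the same subunit position, in each WT (circles) and KO (squares) library. Cox6b1 and Cox6b2 are both higher in KO, whereas Cox7a1 and Atp5g1 are lower while Cox7a2, Atp5g2 and Atp5g3 are not.

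The members on chromosome 11 all fell. They are Uqcr10 (chr11:4701968-4704344), Uqcrq (chr11:53427922-53430831), Atp5g1 (chr11:96072793-96075694) and Atp5h (chr11:115415691-115419919), spread along the chromosome. All 4 were called lower, with a median log2 fold change of -0.38, and the median difference from WT was -0.39 in both KO libraries. Of the 1224 tested genes of chromosome 11, these 4 members included, 67.4% were called lower in KO, with a median of -0.47. Another 33 were called higher and 366 were not called. Elsewhere in the genome 23 of 81 tested members were higher and 7 lower, beside 20.3% and 18.1% of tested genes outside chromosome 11, and the median was 0.06. These counts were 12 and 0 with the replicate block. Without a single WT library they were 13 to 22 higher and 3 to 4 lower.

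Uqcr10, a small membrane subunit of complex III, had 36.1, 32.5 and 30.6 FPKM in WT and 24.4 and 25.1 FPKM in KO (log2 fold change -0.41, SE 0.07, adjusted p = 0.0061). Uqcrq, another small membrane subunit of complex III, had 70.2, 65.8 and 74.0 FPKM in WT and 54.8 and 54.6 FPKM in KO (log2 fold change -0.35, SE 0.05, adjusted p = 0.0038). The KO values of both genes lay below all WT values.

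Atp5h, a subunit of the peripheral stalk that holds the catalytic head still, had 138, 137 and 138 FPKM in WT and 112 and 105 FPKM in KO (log2 fold change -0.34, SE 0.04, adjusted p = 0.0016). Atp5g1 had 18.2, 18.5 and 19.9 FPKM in WT and 13.9 and 12.5 FPKM in KO (log2 fold change -0.52, SE 0.06, adjusted p = 0.0019). The calls of all 4 genes held without any single library and with the replicate block.

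Relative to the other genes of chromosome 11 these members were not called lower. With the chromosome medians subtracted 0 of the 4 were called lower, and the log2 fold changes became -0.04 for Atp5g1, 0.13 for Atp5h (adjusted p = 0.032, now higher), 0.07 for Uqcr10 (adjusted p = 0.57) and 0.13 for Uqcrq (adjusted p = 0.053). Their 10 nearest tested genes had medians of -0.78 around Uqcr10, -0.54 around Uqcrq, -0.49 around Atp5g1 and -0.70 around Atp5h. Among these neighbours 9, 6, 6 and 6 of 10 were called lower and 0 higher.

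**Figure D4:**
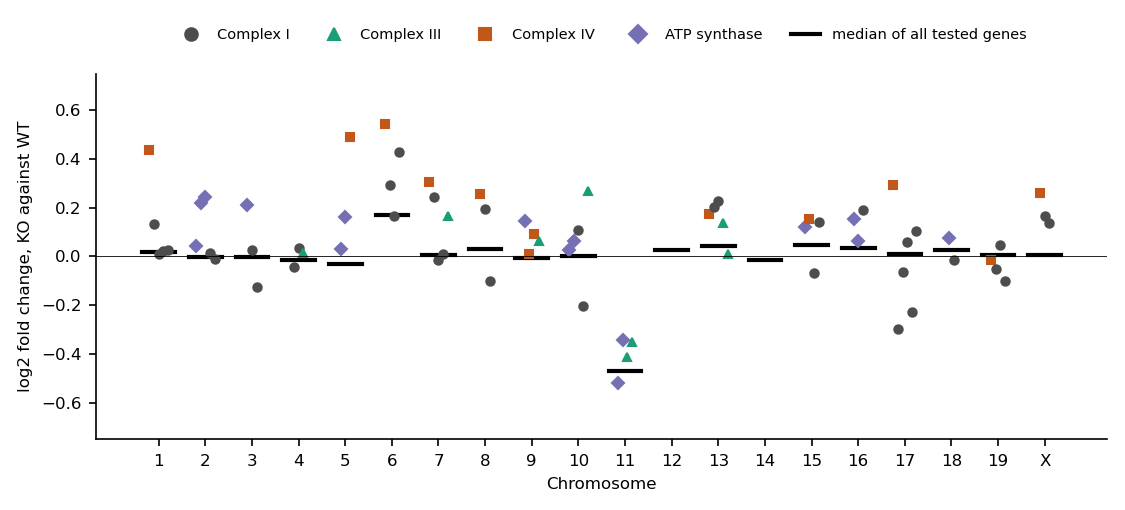
Log2 fold change of KO against WT (y axis) of each structural subunit, placed by chromosome (x axis) with a symbol for its complex; black bars are the median of all tested genes of that chromosome. Chromosome 11 has a median of -0.47 with its 4 members around it, and the complex IV symbols lie above the bar of their chromosome except for Cox8a on chromosome 19.

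ATP synthase joins a catalytic F1 head, a rotating Fo ring in the membrane and a peripheral stalk. Of its 15 subunits 3 were higher (Atp5g3, Atp5f1 and Atp5j) and 2 lower (Atp5g1 and Atp5h), beside 18.8% and 22.3% of all tested genes, with a median log2 fold change of 0.07. Outside chromosome 11 the 13 others had estimates above 0, with a median of 0.12, of which 3 passed the test. With centring outside chromosome 11, Atp5b, Atp5c1, Atp5d and Atp5j2 were below 0 (-0.04 to 0.00) and 1 of the 3 calls was left. None of the 5 F1 subunits was called: Atp5b had 283, 286 and 292 FPKM in WT and 302 and 284 FPKM in KO (adjusted p = 0.64), and Atp5e had 20.5, 16.1 and 16.9 against 20.3 and 20.9 FPKM (adjusted p = 0.14, or 0.010 without WT 1).

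In the Fo ring, the 3 genes of the c subunit differed, with Atp5g1 lower, Atp5g3 higher and Atp5g2 not called. Atp5g3 rose from 44.2, 43.0 and 43.3 to 53.0 and 50.2 FPKM (log2 fold change 0.24, SE 0.04, adjusted p = 0.0047). Atp5g2, the most abundant of the 3, had 75.9, 71.5 and 67.7 FPKM in WT and 75.6 and 80.1 FPKM in KO, which overlapped (log2 fold change 0.12, adjusted p = 0.14). The share of Atp5g1 in the sum of the 3 was 13.2%, 13.9% and 15.2% in WT and 9.72% and 8.75% in KO (exact permutation p = 0.1, the smallest possible, adjusted 0.17). The sum itself was 138, 133 and 131 FPKM in WT and 143 FPKM in each KO library (exact permutation p = 0.2, adjusted 0.25). The sum was above every WT value in both KO libraries, with less of it from Atp5g1.

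In the peripheral stalk Atp5f1 (52.0, 57.5 and 53.5 against 61.2 and 64.5 FPKM, log2 fold change 0.21, adjusted p = 0.023) and Atp5j (log2 fold change 0.15, adjusted p = 0.029) rose and Atp5h fell. The calls of Atp5f1 and Atp5j were lost without single libraries, each of the 5 costing at least 1 of them, at adjusted p from 0.062 to 0.12. The exons of Atp5j overlap those of Gabpa on the opposite strand. Atp5s, an assembly-related factor that matches the symbol rule, had 1.87, 1.87 and 1.84 FPKM in WT and 1.48 and 1.10 FPKM in KO (log2 fold change -0.51, adjusted p = 0.029), a call lost without any WT library or without KO 2 (adjusted p from 0.076 to 0.097).

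Complex III, the cytochrome bc1 complex, had its only decreases in the 2 genes of chromosome 11. Of the 8 subunits taken by the symbol rule, which misses Cyc1, 3 were higher and 2 lower, beside 18.8% and 22.3% of all tested genes. Uqcr11 (log2 fold change 0.27), Uqcrc2 (0.17) and Uqcrb (0.14) were higher, and Uqcr10 and Uqcrq lower. The median was 0.04, or -0.02 with centring outside chromosome 11. Outside chromosome 11 the median of the 6 others was 0.10. Uqcr11 had 15.8, 18.2 and 18.6 FPKM in WT and 20.6 and 21.5 FPKM in KO, Uqcrc2, a core subunit without a redox group, 36.0, 34.8 and 37.6 against 41.6 and 39.5 FPKM, and Uqcrb 137, 141 and 134 against 147 and 155 FPKM. These groups did not overlap, but the 3 calls were lost without single libraries, each of the 5 costing at least 1, at adjusted p from 0.055 to 0.15. With centring outside chromosome 11 none of the 3 was called (adjusted p = 0.077 for Uqcr11, 0.10 for Uqcrc2 and 0.23 for Uqcrb). Uqcrfs1, the Rieske iron-sulphur protein that takes electrons from ubiquinol, had 25.8, 24.4 and 26.7 FPKM in WT and 26.8 and 24.9 FPKM in KO (log2 fold change 0.01, adjusted p = 0.89). The sum over these 8 subunits was 407 to 416 FPKM in WT and 413 and 415 FPKM in KO.

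Complex I, NADH dehydrogenase, was close to even. None of its 36 subunits lies on chromosome 11. Of them 5 were higher, 3 lower and 28 not called, beside 41.1% of all tested genes called, with a median log2 fold change of 0.03. With centring on all tested genes 3 were higher and 4 lower with a median of 0.00, and with centring outside chromosome 11 there were 1 and 4 with a median of -0.04. The sum was 938, 907 and 914 FPKM in WT and 952 and 951 FPKM in KO (exact permutation p = 0.2, adjusted 0.25).

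The 7 nuclear core subunits, which carry the flavin, the iron-sulphur clusters and the ubiquinone site, included 0 calls higher and 2 lower, beside 18.8% and 22.3% of all tested genes. Ndufv2, an iron-sulphur subunit at the NADH end, had 55.8, 50.0 and 53.3 FPKM in WT and 45.8 and 44.6 FPKM in KO (log2 fold change -0.23, SE 0.05, adjusted p = 0.017), while the 10 genes nearest to it on chromosome 17 had a median of 0.29. Ndufs7, near the ubiquinone site, had 23.7, 22.5 and 23.3 FPKM in WT and 21.3 and 19.0 FPKM in KO (log2 fold change -0.20, SE 0.06, adjusted p = 0.035). Ndufv1, which binds NADH and the flavin, had 36.5, 33.8 and 35.2 FPKM in WT and 32.9 and 32.6 FPKM in KO and was not called (log2 fold change -0.10, adjusted p = 0.12), though it was with centring outside chromosome 11 (adjusted p = 0.023). Ndufs1, Ndufs3 and Ndufs8 had estimates between -0.01 and 0.04 and overlapping groups. An exon of Ankrd12 overlaps Ndufv2 on the same strand.

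Among the 29 accessory subunits, 5 were higher and 1 lower, beside 18.8% and 22.3% of all tested genes. Ndufb2, in the membrane arm, had 10.4, 11.1 and 11.2 FPKM in WT and 13.5 and 15.9 FPKM in KO (log2 fold change 0.43, SE 0.08, adjusted p = 0.0076). It lies on chromosome 6, and with chromosome medians subtracted the estimate was 0.26 (adjusted p = 0.021). Ndufa3 had 35.3, 30.3 and 31.1 against 38.2 and 38.0 FPKM (log2 fold change 0.24, adjusted p = 0.033). Ndufa5 had 41.5, 37.1 and 34.4 against 42.7 and 49.6 FPKM (log2 fold change 0.29, adjusted p = 0.051), and was called without WT 1 (0.030) or KO 1 (0.046). Ndufa11, a membrane arm subunit, was the lowest, with 9.09, 8.77 and 9.14 FPKM in WT and 7.63 and 6.98 FPKM in KO (log2 fold change -0.30, SE 0.06, adjusted p = 0.0093, or 0.061 with the replicate block). Ndufs4 (0.20), Ndufb9 (0.14) and Ndufa10 (0.13) completed the calls. The calls of Ndufb2 and Ndufa11 held without any single library, while the other 6 of the complex were lost without at least 1, each of the 5 libraries costing at least 1 call, at adjusted p from 0.052 to 0.14.

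The assembly factors selected by the rule were 9, of which 2 rose and 1 fell (Atp5s, above), beside 18.8% and 22.3% of all tested genes. Ndufaf4, a factor for the early assembly of complex I, had 3.94, 4.20 and 4.48 FPKM in WT and 6.37 and 6.08 FPKM in KO (log2 fold change 0.56, SE 0.08, adjusted p = 0.0025). Ndufaf5, which modifies Ndufs7, had 3.95, 3.78 and 4.06 against 5.71 and 5.69 FPKM (log2 fold change 0.53, SE 0.06, adjusted p = 0.0017). Both rose by more than any structural subunit of complex I.

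Of the other genes of the pathway, none of the 4 complex II subunits, which link the chain to the citric acid cycle, was called. Sdha had 49.4, 47.1 and 49.0 against 53.1 and 51.3 FPKM (adjusted p = 0.074), Sdhb had a log2 fold change of -0.10, Sdhc of 0.09 and Sdhd of 0.11. With centring by transcript length Sdha (adjusted p = 0.043) and Sdhd (0.021) were called higher. The estimate of Sdhc was 0.19 without KO 1 and -0.01 without KO 2. Cycs, the somatic cytochrome c that carries electrons to complex IV, rose from 9.32, 9.48 and 9.22 to 12.4 and 13.0 FPKM (log2 fold change 0.44, SE 0.05, adjusted p = 0.0012). It lies on chromosome 6, and its log2 fold change was 0.27 with chromosome medians subtracted. Cyc1, the cytochrome c1 of complex III, did not pass the test (log2 fold change 0.01, adjusted p = 0.84).

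Over the 4 lists of assembly factors 5 of 46 were higher and 13 lower, beside 18.8% and 22.3% of all tested genes. Among the 5 higher, Usmg5 encodes a subunit of ATP synthase that the symbol rule missed, not an assembly factor. Of the 13, 6 lie on chromosome 11 (Atpaf2, Coa3, Cox11, Sco1, Taco1 and Ttc19), and with chromosome medians subtracted none of these was called lower, Sco1 was higher (adjusted p = 0.016), and the lists had 7 higher and 6 lower. For complex I, 2 of 14 tested were higher (Ndufaf4 and Ndufaf5) and 3 lower, the lowest Nubpl, which delivers iron-sulphur clusters (log2 fold change -0.62, adjusted p = 0.0043). For complex III, 0 of 6 were higher and 2 lower: Uqcc2, needed for cytochrome b (log2 fold change -0.58, adjusted p = 7.0e-04), and Ttc19 on chromosome 11 (-0.45, adjusted p = 0.0079). For complex IV, 2 of 21 were higher and 6 lower, 4 of them on chromosome 11, from Taco1 on chromosome 11 (-0.54, adjusted p = 0.019) to the copper chaperone Sco2 (0.35, adjusted p = 0.024). The call of Sco2 was lost without WT 1 (0.059), WT 2 (0.070), WT 3 (0.063) or KO 2 (0.11), and that of Taco1 without WT 1 (0.055), WT 3 (0.065) or KO 2 (0.067). For ATP synthase, 1 of 5 was higher, Usmg5 (0.23, adjusted p = 0.0056, or 0.056 with the replicate block), and 2 lower, the lowest Tmem70, needed to form the c ring (4.40, 4.75 and 4.97 against 2.96 and 2.46 FPKM, log2 fold change -0.78, adjusted p = 0.0023).

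Of 12 tested regulators of mitochondrial biogenesis 1 was higher, Esrrb, and 2 lower, Pprc1 and Tfb1m, beside 18.8% and 22.3% of all tested genes. Nrf1, whose motif is marked in the sequences above, had a log2 fold change of 0.02 (adjusted p = 0.80), Gabpa 0.00 and Yy1 0.11 (adjusted p = 0.16). Esrrb, an orphan nuclear receptor that is also an ES cell factor, rose from 60.0, 60.3 and 58.9 to 77.6 and 82.3 FPKM (log2 fold change 0.42, SE 0.04, adjusted p = 8.0e-04). Pprc1, a coactivator related to PGC-1, fell (log2 fold change -0.25, SE 0.04, adjusted p = 0.0046). Tfb1m fell (log2 fold change -0.28, adjusted p = 0.037), a call lost without WT 1 (0.10), WT 3 (0.10), KO 1 (0.11) or KO 2 (0.14). Ppargc1a had at most 0.01 FPKM.

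Of 15 genes of the citric acid cycle, which feeds the chain, 5 were higher and 3 lower, beside 18.8% and 22.3% of all tested genes, with a median of -0.05. Suclg1, a subunit of succinyl-CoA ligase, rose from 26.2, 25.0 and 24.4 to 29.4 and 31.6 FPKM (log2 fold change 0.27, adjusted p = 0.0079), but it lies on chromosome 6 and was not called with chromosome medians subtracted (0.11, adjusted p = 0.13) or with the replicate block (adjusted p = 0.066). The decrease of Ogdh on chromosome 11 was not called with chromosome medians subtracted either (0.06, adjusted p = 0.51). Suclg2, another subunit of succinyl-CoA ligase, fell from 8.83, 8.0 and 8.49 to 4.42 and 6.14 FPKM (log2 fold change -0.68, adjusted p = 0.0095). In glycolysis 4 of 20 genes were higher and 10 lower, beside 18.8% and 22.3% of all tested genes, with a median of -0.20. With chromosome medians subtracted, the increases of Slc2a3 (adjusted p = 0.18) and Gapdh (0.069) on chromosome 6 and the decrease of Aldoc (0.78) on chromosome 11 were not called. Ldha, which converts pyruvate to lactate, fell from 104, 81.1 and 97.5 to 26.7 and 32.3 FPKM (log2 fold change -1.67, SE 0.12, adjusted p = 5.2e-04), whereas Hk2, which phosphorylates glucose, rose from 31.6, 31.4 and 32.1 to 39.3 and 44.9 FPKM (log2 fold change 0.41, adjusted p = 0.0033; the log2 fold change was 0.24 with chromosome medians subtracted). The estimate for Ldha was larger in size than that of any respiratory subunit.

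**Figure D5:**
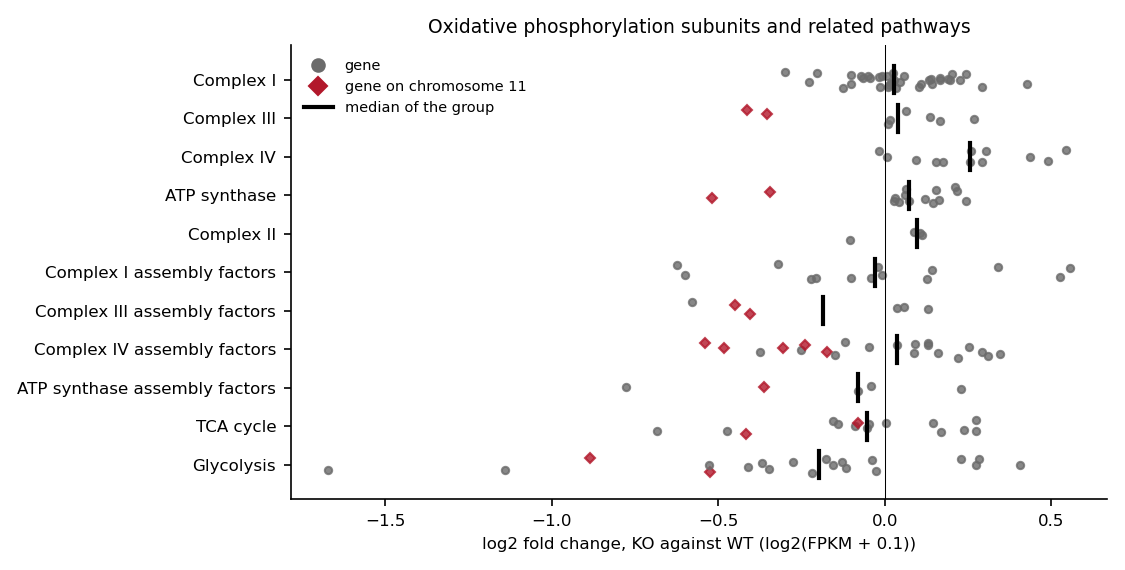
Log2 fold change of KO against WT (x axis) for the structural subunits of each complex and for related lists, with 1 point per tested gene, red diamonds for genes on chromosome 11 and a black bar at the median of the group. Complex IV has the highest median (0.26) and glycolysis the lowest (-0.20) of the groups drawn.

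Few members had a ZFP57 peak nearby. Of 1423 ZFP57 peaks deposited for WT cells, only 1 member of 88 (1.14%) had one within 20 kb, beside 4.25% of 24289 placed genes. It was Atp5s, 6478 bp from the peak at chr12:69717831-69718435. None had a peak within 5 kb (2.07% of all genes) and 6 within 50 kb (8.11% of all genes), and of the chromosome 11 members the closest was Atp5h at 21529 bp. The peaks are positions without a score.

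Length and sequence copies of the members bear on how their FPKM were measured. They are short, with a median spliced length of 908 bases against 3060 for all tested genes, and with tested genes divided by length into 10 equal groups, 60 of the 85 tested members fall in the shortest 2. In the shortest group the median log2 fold change was 0.12 for the members and 0.07 for all genes, and centring by length lowered the median of complex IV to 0.21. Near-identical copies elsewhere in the genome, at 95% identity or more over at least 50% of the transcript, were found for 21 members, among them Atp5h (3 copies), Atp5g1 (1), Cox5b (2), Cox6c (2), Cox7c (3), Uqcrb (3) and Atp5g2 (2). Their counts are uncertain, since reads may be split between copies. Of the 64 tested members without such a copy 16 were higher and 9 lower, with a median of 0.04, and of the 21 with a copy 7 were higher and 2 lower, with a median of 0.14, beside 18.8% and 22.3% of all tested genes higher and lower. Exons of 18 members overlap those of another gene, among them Uqcr10 and Uqcrq with genes on the opposite strand, and whether counting used the strand is not given in the sources used here.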

How the data were processed

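RNA-seq of 3 WT and 2 KO ES cell libraries was used. The authors deposited gene expression as FPKM, rounded to 2 decimals. Paired reads were mapped to mm10; the submitters' processing notes name STAR 2.5.2 and Trim Galore 0.2.7, and the counting, annotation and test are not given in the sources used here. Total counts per library are unknown, so no counting interval can be given. ZFP57 peaks, called in at least 2 WT replicates, were deposited as positions; the notes name BWA 0.6.2 and MACS2 2.1.0. The list for hybrid cells was used only as a label.

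Genes were placed on GRCm38 with RefSeq by symbol (23193 of 24409) or synonym (1096). The 14612 genes averaging 0.1 FPKM or more were fitted as log2(FPKM + 0.1) with limma 3.58.1 (empirical Bayes with trend, R 4.3.3), WT and KO libraries only and no covariate, after a check on simulated data, with Benjamini-Hochberg adjustment over all of them. Sums and shares were compared by exact permutation over the 10 arrangements of the libraries (scipy 1.17.1), where 0.1 is the smallest p. Replicate numbers are shared between WT and KO in the labels, which do not say that they pair the libraries. Deviations of same-numbered libraries correlated at -0.07 and -0.04. With 2 KO libraries the KO deviations mirror each other, so this check cannot settle whether the libraries are paired. Near-identical copies came from an alignment of RefSeq transcripts to the genome. The members and all gene lists were chosen with earlier results of these data known. Apart from the exact tests on sums and shares, no list was tested as a set. The genes named are Zfp57, the members on chromosome 11, the paralogue groups, the 3 highest and 3 lowest subunits of each complex with a mean of at least 1 FPKM, the 7 core complex I subunits, complex II, Cycs, Cyc1, the highest and the lowest call of each related list and the cell type markers. Other members, and Nrf1, Gabpa, Yy1, Ppargc1a, Pprc1, Slc2a3, Gapdh, Aldoc, Ogdh and assembly factors on chromosome 11, were named after their values were seen. Alternatives were other pseudocounts, filters, centrings and variance models, the replicate block and leaving out each library. The ChIP-seq signals, input libraries and DNA methylation of the series are not analysed here, and 1 gene is counted but not reported by name.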

Additional observations from a re-analysis of the deposited data

How the results depend on the processing

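The main counts were 23 members higher and 11 lower, of which 4 on chromosome 11 and 7 elsewhere. No paired analysis is implied by the labels' replicate numbers. A fit with the replicate block gave 12 higher and 4 lower, the latter all on chromosome 11 and 0 elsewhere. Its medians were 0.08 for members elsewhere, 0.047 for complex I and 0.097 for ATP synthase. No KO library shares the number of WT 3, so the block estimates equal those without WT 3 and are not a separate check. Leaving out 1 library gave 13 to 22 higher, 7 to 9 lower and 3 to 5 lower elsewhere, and medians of -0.41 to -0.35 on chromosome 11, 0.067 to 0.081 elsewhere, 0.023 to 0.047 for complex I, 0.029 to 0.082 for complex III, 0.21 to 0.28 for complex IV and 0.067 to 0.12 for ATP synthase; where a KO library was left out, the lone KO library was assumed to vary like WT. Without the mean-variance trend 11 were higher, at an adjusted p under 0.01 there were 10 higher and 6 lower (2 elsewhere), and with an estimate beyond 0.5 in either direction 3 higher and 5 lower (1 on chromosome 11 and 4 elsewhere). Structural subunits alone had 7 lower (3 elsewhere) and a median of 0.094 elsewhere. Without members with near-identical copies 2 were lower on chromosome 11, an alternative chosen after seeing the data. Centring on all tested genes gave medians of -0.41 on chromosome 11, 0.033 elsewhere, -0.0031 for complex I and 0.043 for ATP synthase. Centring outside chromosome 11 gave 12 higher and medians of -0.45 on chromosome 11, 0.0006 elsewhere, -0.036 for complex I, -0.024 for complex III, 0.19 for complex IV and 0.011 for ATP synthase. Centring by length gave 0.21 for complex IV. With chromosome medians subtracted 7 were lower and 0 on chromosome 11, the medians were 0.095 on chromosome 11 and 0.079 for complex III, and Atp5h (0.13), Uqcr10 (0.066), Uqcrq (0.13) and Ttc19 (0.029) reversed, since the alternative removes what the genes of a chromosome share. The cause of the other changes was not tested. Peak windows of 5 and 50 kb gave 0 and 6 members. Of 34 called members 10 held their call under all 16 alternative fits: Atp5g3, Cox4i1, Cox5b, Cox6b1, Cox6b2, Cox7b, Ndufa4, Ndufaf4, Ndufaf5 and Ndufb2. The unknown depth limits genes of low FPKM such as Ndufa4l2 most.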
